A study of Mus musculus with 9 samples.

Results

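The collagen chains are the subunits from which every collagen is built. Each chain is the product of its own gene, and the chains are counted here as the protein-coding rows of the deposited count table whose symbol is Col, a number, a and a second number. The rule used names only, not expression values, and it found 44 chains among the 50813 genes listed. Of the 44, 11 are fibrillar chains, 6 are basement membrane chains, 9 are FACIT chains (which lie on the surface of fibrils and have interrupted helices) and 18 belong to other types. They were compared in Lewis lung carcinoma (LLC) cells, a mouse lung tumour line that grows in culture as a mesenchymal-like population, with 3 RNA-seq libraries from each of 3 lines: WT, and the CD47 KO clones named E3 and E5. All cells came from an LLC line that expresses luciferase and were kept in DMEM with 10% fetal bovine serum and antibiotics. The KO lines were made by electroporation of Cas9 with a guide against Cd47, which encodes a cell surface receptor, and each is the progeny of 1 cell, so that the loss of CD47 and anything else particular to that clone cannot be told apart. The question is whether the lines differ in which collagens they transcribe. The methods describe the 3 libraries of a line as independent biological replicates.

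Collagen chains wind in threes into a triple helix, and which chains are present decides which collagen a cell can secrete. Fibrillar collagens of types I, III and V form the cables of connective tissue, with the type V chains as minor partners that set where fibrils begin. Type IV forms the sheet of the basement membrane, and type VI forms beaded filaments between that sheet and the fibrils. In tumours, both cancer cells and fibroblasts can supply collagen, and the matrix they lay down is known for its part in adhesion and migration.

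Library sizes were 44257404 to 55095219 counts, and 24 of the 44 chains had enough counts to be tested among 14593 genes. Cd47 itself fell from 183 ± 3.92 CPM (mean ± SD, n = 3; CPM are normalized counts, scaled by TMM to a common library size) to 44.6 ± 6.87 CPM in the E3 libraries and 17.4 ± 1.66 CPM in those of E5, and no KO library reached the lowest WT library. Replicate 3 of clone E3 stood apart from the other libraries of its line: the chi-square per degree of freedom between library pairs was 189 and 229 for the pairs that held it and 4.81 to 38.8 for the others. Values that move with it are therefore also given without it. The 4 lung epithelial markers listed (Sftpc, Sftpb, Nkx2-1 and Scgb1a1) had no count in any library, so these markers of the labelled tissue were absent. Of 5 general epithelial markers, Krt8 and Krt18 had WT means of 191 and 264 CPM, Krt19 was below 1 CPM, Cdh1 was near 0 and Epcam had no count. The summed level of 4 mesenchymal markers, led by Vim, was 4635 to 4715 CPM in WT, 5505 to 7265 in E3 and 6959 to 7634 in E5. Endothelial markers summed to at most 0.190 CPM, and of 4 macrophage markers 3 stayed below 1 CPM. Since these are bulk cultures, fewer cells that express a chain and less RNA of it per cell cannot be told apart.

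The stretches of genome just before 5 of the chains are shown because the results turn on these genes. Col3a1 and Col5a2 are neighbours on chromosome 1 that behaved differently, Col4a5 and Col6a3 were nearly silent in clone E5, and Col6a2 is a partner of Col6a3 in type VI. Each run is the 250 bases that end just before the transcription start that GENCODE vM39 gives for the canonical transcript, in GRCm39, written 5′ to 3′ on the strand of the gene, and holds no annotated exon. Capitals mark matches, on either strand, to the letters CCAAT of the box of that name, to GGGCGG of the GC box and to TATAAA of the TATA box, and no match overlaps another.
Col3a1 (chr1:45350448-45350697, plus strand): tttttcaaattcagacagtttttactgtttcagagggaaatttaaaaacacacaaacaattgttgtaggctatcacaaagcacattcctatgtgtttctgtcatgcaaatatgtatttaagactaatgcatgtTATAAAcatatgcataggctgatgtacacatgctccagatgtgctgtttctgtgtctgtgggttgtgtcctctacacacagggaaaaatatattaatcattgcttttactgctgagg
Col5a2 (chr1:45542443-45542692, minus strand): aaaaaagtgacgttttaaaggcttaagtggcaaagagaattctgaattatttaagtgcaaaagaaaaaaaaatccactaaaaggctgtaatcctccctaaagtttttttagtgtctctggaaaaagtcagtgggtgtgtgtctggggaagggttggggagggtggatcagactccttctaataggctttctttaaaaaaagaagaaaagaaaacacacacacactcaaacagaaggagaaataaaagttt
Col4a5 (chrX:140258104-140258353, plus strand): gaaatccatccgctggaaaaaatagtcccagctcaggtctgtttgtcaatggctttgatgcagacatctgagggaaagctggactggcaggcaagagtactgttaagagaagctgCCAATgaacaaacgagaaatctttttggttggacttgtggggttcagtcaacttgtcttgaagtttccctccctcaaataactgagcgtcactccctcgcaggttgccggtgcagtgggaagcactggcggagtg
Col6a3 (chr1:90771781-90772030, minus strand): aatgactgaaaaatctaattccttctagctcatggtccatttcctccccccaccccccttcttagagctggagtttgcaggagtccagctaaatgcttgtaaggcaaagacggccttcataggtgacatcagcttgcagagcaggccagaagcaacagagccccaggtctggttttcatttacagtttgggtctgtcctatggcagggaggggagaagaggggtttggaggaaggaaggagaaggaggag
Col6a2 (chr10:76459550-76459799, minus strand): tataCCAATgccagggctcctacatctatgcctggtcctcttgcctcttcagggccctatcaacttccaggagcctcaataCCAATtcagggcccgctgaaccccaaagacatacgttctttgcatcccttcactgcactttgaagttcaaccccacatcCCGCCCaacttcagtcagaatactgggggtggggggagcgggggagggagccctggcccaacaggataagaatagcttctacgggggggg
In the Col3a1 window the letters TATAAA began at position -117 from the start. The Col4a5 window held CCAAT at -135, and the Col6a2 window held it at -246 and -169 together with a GGGCGG match at -90. Neither the Col5a2 nor the Col6a3 window held any of the 3 motifs. Over the windows of 21433 protein-coding genes, 36.5% held CCAAT, 36.4% GGGCGG and 11.9% TATAAA, and the counts among the 44 chains were 15, 21 and 7. A match is only a match of letters.

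In WT cells the collagen mRNA was mostly Col3a1, the single chain of the fibrillar type III homotrimer, and the type IV pair Col4a1 and Col4a2. Per kb of exon, the WT mean levels were 271 CPM for Col3a1, 178 for Col4a1, 98.4 for Col4a2, 87.9 for Col18a1, 45.2 for Col5a1, 36.0 for Col6a1, 35.0 for Col16a1 and 12.7 for Col6a2. These are also the 8 chains with a mean of at least 100 CPM in at least 1 line. Another 10 reached 1 CPM in some line, and 26 did not. Of the 20 chains below the filter on low counts, 4 (Col26a1, Col19a1, Col10a1 and Col6a5) had no count in any library, which allows up to 3 counts or 0.0555 to 0.0660 CPM, and the highest count of the other 16 was 11. Type I collagen, the main fibril of connective tissue, was nearly absent, with WT means of 1.67 CPM for Col1a1 and 0.291 CPM for Col1a2. Collagen chains took 0.623 to 0.697% of all counts in WT libraries, 0.722 to 0.983% in clone E3 and 0.640 to 0.691% in clone E5.

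**Figure D1:**
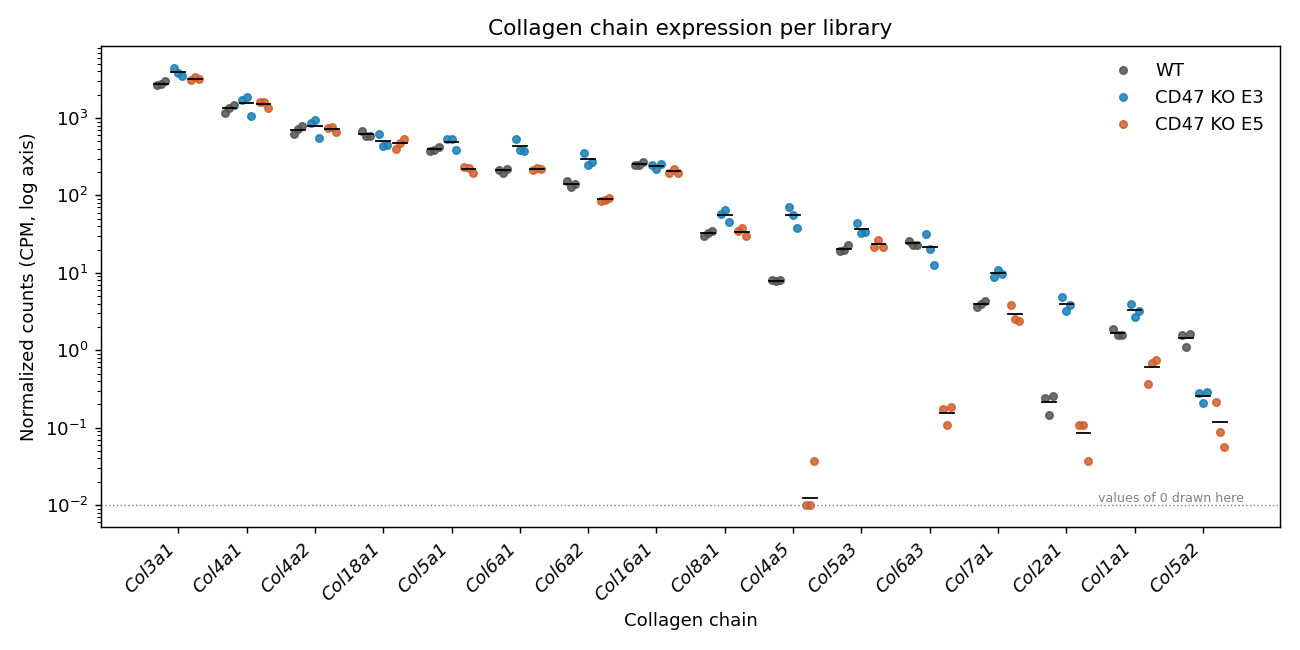
Normalized counts of 16 collagen chains in each of the 9 libraries, on a log axis in CPM, ordered by their highest group mean; each point is a library and each bar the mean of 3. Col4a5 and Col6a3 stand at 7.76 to 26.1 CPM in WT cells and at 0.185 CPM or less in clone E5, whereas Col3a1, Col4a1 and Col4a2 differ by less than 2-fold between any libraries.

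Most chains that were DEGs rose in clone E3, and all that were DEGs fell in clone E5. In clone E3, 6 chains rose (Col6a1, Col6a2, Col4a5, Col7a1, Col2a1 and Col1a2) and 1 fell (Col5a2), where a DEG had an FDR below 0.05 and a log2 fold change over 1 in size. Among all genes tested, 5.43% rose and 4.39% fell by the same rule. With the FDR alone, Col3a1, Col8a1, Col5a3 and Col1a1 were also higher, which makes 11 of 24 chains beside 30.5% of all genes. The median log2 fold change of the 24 tested chains was 0.52 beside 0.01 over all genes. Without replicate 3 of clone E3, Col12a1 joined those that rose (1.58 on the log2 scale), for 7 higher and 1 lower, and with the FDR alone the count was then 16 chains, beside 43.2% of all genes. With all libraries, Col2a1 and Col12a1 each reached the filter on low counts in 3 libraries of clone E3, 2 of WT and 0 of clone E5. The counts and the median in clone E3 are therefore a description only. Col6a1 was not a DEG without replicate 2 of WT (0.99) or replicate 1 of clone E3 (0.87), nor was Col6a2 without the latter (0.90). Col1a2, at 11 to 48 counts in these libraries, was not one without replicate 1 (FDR = 0.0636) or replicate 2 (FDR = 0.0695) of WT.

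In clone E5, 6 chains fell (Col4a5, Col6a3, Col1a1, Col5a2, Col23a1 and Col14a1) and none rose by edgeR's quasi-likelihood test. No chain was higher at an unadjusted p under 0.05 either, and DESeq2 also called 0 higher. Among all genes, 5.52% fell and 2.69% rose. With the FDR alone, Col5a1, Col6a2 and Col16a1 were also lower, 9 chains of 24 beside 20.6% of all genes. The median log2 fold change of the tested chains was -0.56 beside -0.00 over all genes. The filter on low counts was about 0.210 CPM in 3 libraries. Of the 6 chains that fell, Col4a5, Col6a3, Col23a1 and Col14a1 reached it through WT and clone E3 alone. So did Col2a1 and Col12a1, each with 2 libraries of WT and 3 of clone E3. A count over the chains that passed is therefore a description only. Col14a1, at 3 to 13 counts in WT and clone E5, was not a DEG when any 1 of 7 libraries was left out, with an FDR from 0.0502 (without replicate 3 of clone E5) to 0.155 (without replicate 2 of clone E5). Both comparisons used the same 3 WT libraries.

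Compared with clone E3 directly, clone E5 was lower for 11 chains (Col5a1, Col6a2, Col4a5, Col6a3, Col7a1, Col2a1, Col1a1, Col23a1, Col1a2, Col12a1 and Col14a1) and higher for 0. The background over all genes was 7.52% lower and 3.49% higher. At an FDR under 0.05 alone the count was 14 chains, beside 31.9% of all genes, and 0 chains were higher at an unadjusted p under 0.05 or by DESeq2. The median of the 24 chains was -1.06 on the log2 scale. Among the 11, Col4a5, Col6a3, Col2a1, Col23a1, Col12a1 and Col14a1 reached the filter on low counts through WT and clone E3 alone. The counts and the median are therefore a description only. Of the 18 chains with a mean of at least 1 CPM in some line, 7 were among the 11. Without replicate 3 of clone E3 the count was 12, with Col6a1 added (-1.06).

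**Figure D2:**
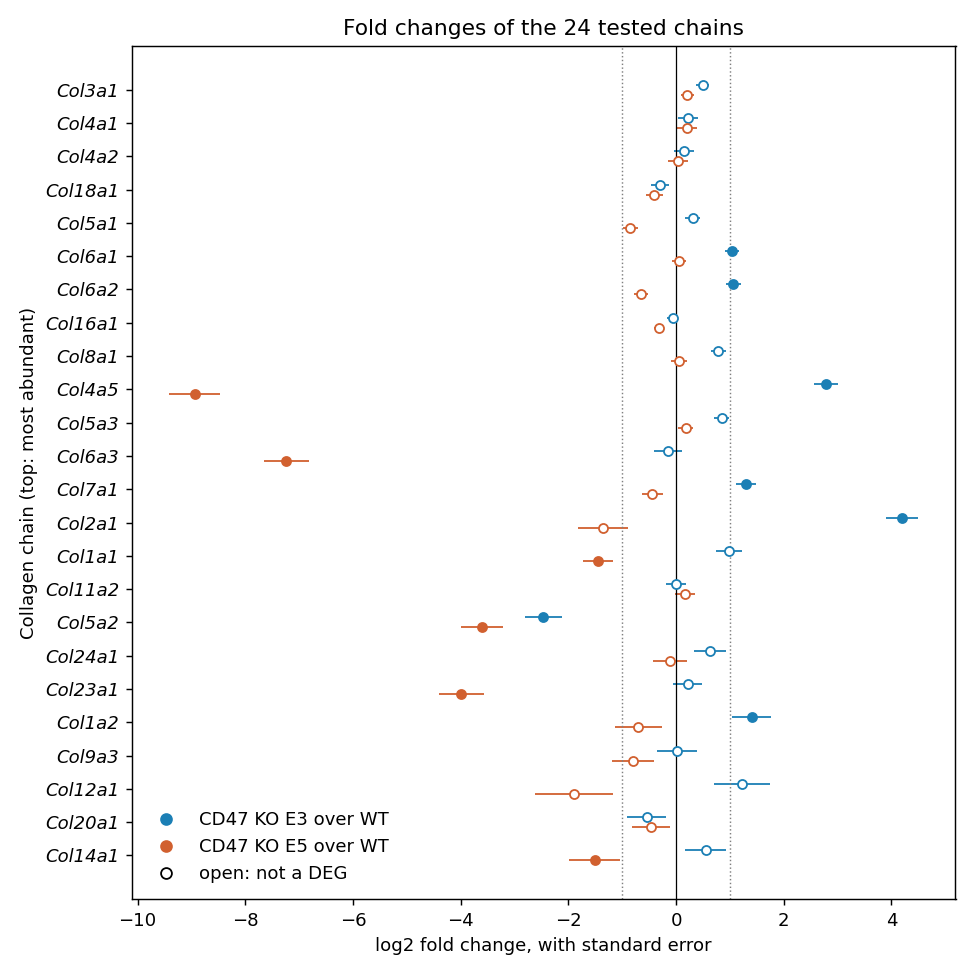
Log2 fold changes over WT of the 24 tested chains in clone E3 and clone E5, with the standard error as a bar, from the most abundant chain at the top to the least abundant. Filled points are DEGs, 7 in clone E3 and 6 in clone E5; Col5a2 is the single chain filled on the same side in both, and the fitted value of Col4a5 in clone E5 rests on 2 counts.

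Among the fibrillar chains, the most abundant one was a DEG in neither clone, and its neighbour on the chromosome was one in both. Col3a1 (chr1:45350698-45388866) measured 2654, 2722 and 2991 CPM in WT, 4456, 3845 and 3502 in clone E3 and 3061, 3397 and 3217 in clone E5. All E3 and all E5 libraries lay above the highest WT library, by a log2 fold change of 0.50 ± 0.12 (SE, FDR = 0.00916) in clone E3 and 0.21 ± 0.12 (FDR = 0.240) in clone E5, so neither was a DEG and the second did not pass the FDR. The neighbour Col5a2 (chr1:45413481-45542442), which encodes the alpha 2 chain of type V, lies 24.6 kb away with its 3′ end facing that of Col3a1. Col5a2 measured 1.56, 1.12 and 1.65 CPM in WT, 0.280, 0.211 and 0.286 in clone E3 and 0.216, 0.0868 and 0.0555 in clone E5. No KO library of either clone reached the lowest WT library, and Col5a2 fell by 2.47 ± 0.34 on the log2 scale in clone E3 (FDR = 5.26e-04) and fell by 3.60 ± 0.39 in clone E5 (FDR = 1.09e-04). The E5 values rest on 3 to 10 counts per library.

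Col5a1, which encodes the alpha 1 chain of type V, measured 371, 390 and 421 CPM in WT, 541, 532 and 392 in clone E3 and 234, 228 and 193 in clone E5. The E5 libraries were all below WT and the E3 libraries overlapped it, with a log2 fold change of -0.85 ± 0.14 in clone E5 (FDR = 0.00160) and 0.31 ± 0.14 in clone E3 (FDR = 0.116), or 0.44 without replicate 3 (FDR = 0.00180). Col5a1 was a DEG in neither clone. Col5a3, the third type V chain, measured 19.3, 19.6 and 22.7 CPM in WT, 44.5, 32.7 and 33.8 in clone E3 and 21.7, 26.4 and 21.9 in clone E5. Every E3 library was above both other lines, at a log2 fold change of 0.85 ± 0.14 over WT (FDR = 0.00138), short of a DEG, while clone E5 overlapped WT (0.18 ± 0.14, FDR = 0.403). Of the 3 type V genes, Col5a2 was thus a DEG in both clones, and Col5a1 and Col5a3 in neither. In clone E5, Col5a1 still passed the FDR in the same direction as Col5a2. A difference between the 3 genes was not tested.

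Col1a1, the alpha 1 chain of type I, measured 1.86, 1.56 and 1.58 CPM in WT, 4.02, 2.66 and 3.25 in clone E3 and 0.366, 0.694 and 0.758 in clone E5. The 3 lines did not overlap. Col1a1 fell by 1.45 ± 0.27 on the log2 scale in clone E5 (FDR = 0.00392) and stood at 0.99 ± 0.24 in clone E3 (FDR = 0.0111), just under the fold threshold, which it passed without replicate 1 of WT (1.07) or replicate 2 of clone E3 (1.12). Its partner Col1a2 rose in clone E3 (1.41 ± 0.36, FDR = 0.0148) from 0.291 to 0.772 CPM and had 7 to 11 counts per library in clone E5. Col2a1, the chain of cartilage type II collagen, measured 0.240, 0.147 and 0.253 CPM in WT, 4.84, 3.17 and 3.89 in clone E3 and 0.108, 0.108 and 0.0370 in clone E5. Every E3 library was more than 10 times any other library, and the rise over WT was 4.20 ± 0.30 on the log2 scale (FDR = 1.18e-05). In clone E5 Col2a1 lay below WT at 2 to 5 counts per library, without passing the test (-1.35 ± 0.47, FDR = 0.0665). The other tested fibrillar chains, Col11a2 and Col24a1, had log2 fold changes of -0.11 to 0.63 over WT and passed no test.

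The basement membrane chains held an abundant pair that was no DEG in either clone and a rarer chain with the largest fitted fold change of the 24. Col4a1 (chr8:11248423-11362826) measured 1155, 1346 and 1484 CPM in WT, 1711, 1857 and 1072 in clone E3 and 1613, 1627 and 1350 in clone E5. Col4a2 (chr8:11362805-11499287) measured 619, 714 and 786 CPM in WT, 862, 937 and 549 in clone E3 and 742, 764 and 663 in clone E5. Both lines overlapped WT for both genes, whose log2 fold changes were 0.03 to 0.22 with standard errors of 0.18 to 0.19 and FDRs from 0.421 to 0.924. Replicate 3 of clone E3 was the lowest of the 9 libraries for each, and without it the log2 fold changes in clone E3 were 0.42 (FDR = 0.00985) and 0.35 (FDR = 0.0158), past the FDR but short of a DEG. The 2 genes start head to head and their listed bounds overlap by 22 bases.

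Col4a5 (chrX:140258381-140472230), which encodes the alpha 5 chain of the type IV collagen of kidney, lung and skin basement membranes, measured 8.11, 7.76 and 7.98 CPM in WT and 70.3, 56.4 and 38.5 in clone E3. In clone E5 it had 0, 0 and 2 counts, against 369 to 405 per WT library. The 3 lines did not overlap, with the rise in clone E3 at 2.79 ± 0.22 on the log2 scale (FDR = 1.95e-05), or 2.99 without replicate 3. The 2 counts of clone E5 were 0.172% of the WT level, with an exact 95% interval of 0.0208 to 0.621% that covers counting error only, and 0.0246% of the E3 level (0.00297 to 0.0887%). Its drop in clone E5 passed the test (FDR = 7.40e-07), but a fitted fold on so few counts is no estimate of size. The other type IV chains Col4a3, Col4a4 and Col4a6 had at most 5 counts in a library, and Col4a6, which starts 1.31 kb from Col4a5 on the opposite strand, at most 2.

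The type VI chains came apart from one another. Col6a1 (chr10:76544626-76562002) measured 212, 197 and 223 CPM in WT, 533, 389 and 380 in clone E3 and 215, 226 and 217 in clone E5. Col6a2 (chr10:76431596-76459464) measured 152, 130 and 139 CPM in WT, 357, 250 and 274 in clone E3 and 85.5, 88.5 and 93.7 in clone E5. Every E3 library exceeded every WT library for both, and both rose, by 1.04 ± 0.13 (FDR = 3.17e-04) and 1.07 ± 0.13 (FDR = 2.96e-04) on the log2 scale. In clone E5 Col6a1 overlapped WT (0.06 ± 0.13, FDR = 0.794), and all Col6a2 libraries lay below WT (-0.65 ± 0.13, FDR = 0.00647) without being a DEG. Col6a3 (chr1:90693645-90771693), the long alpha 3 chain that completes the trimer, measured 26.1, 22.9 and 23.1 CPM in WT, 32.1, 20.1 and 12.6 in clone E3 and 0.172, 0.108 and 0.185 in clone E5. Col6a3 fell by 7.24 ± 0.42 on the log2 scale in clone E5 (FDR = 1.33e-06), a 151-fold lower fitted level, and overlapped WT in clone E3 (-0.15 ± 0.26, FDR = 0.700, or 0.12 without replicate 3). Neither Col6a4, Col6a5 nor Col6a6, the chains that can stand in for alpha 3, had more than 3 counts in any library.

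Col7a1, the anchoring fibril chain of skin, measured 3.59, 4.02 and 4.39 CPM in WT, 8.86, 10.95 and 9.68 in clone E3 and 3.88, 2.56 and 2.42 in clone E5. It rose in clone E3 by 1.30 ± 0.19 on the log2 scale (FDR = 6.06e-04), where all libraries exceeded WT, and overlapped WT in clone E5 (-0.44 ± 0.19, FDR = 0.136). Col8a1, a short network-forming chain of vessel walls, measured 29.8, 33.0 and 34.9 CPM in WT, 58.4, 65.0 and 45.4 in clone E3 and 34.2, 37.5 and 29.8 in clone E5. Its E3 libraries were all above WT (0.79 ± 0.14, FDR = 0.00229) short of a DEG, and clone E5 overlapped WT (0.06 ± 0.14, FDR = 0.830). Col18a1, the multiplexin chain from which endostatin is cut, measured 686, 594 and 583 CPM in WT, 631, 440 and 444 in clone E3 and 399, 483 and 529 in clone E5. Clone E5 lay below WT in all libraries, but neither clone passed the test (E3 -0.30 ± 0.16, FDR = 0.190; E5 -0.40 ± 0.16, FDR = 0.107). Col23a1, a transmembrane collagen, fell by 3.99 ± 0.42 on the log2 scale in clone E5 (FDR = 8.83e-05), from 35 to 41 counts per WT library to 1 to 4.

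Of the FACIT chains, Col16a1 alone reached a group mean of 1 CPM. Col16a1 measured 245, 245 and 270 CPM in WT, 248, 222 and 258 in clone E3 and 196, 219 and 197 in clone E5. Clone E5 was below WT in all libraries at -0.31 ± 0.10 on the log2 scale (FDR = 0.0470), not a DEG, and clone E3 overlapped WT (-0.06 ± 0.10, FDR = 0.668). The 4 other tested FACIT chains, Col9a3, Col12a1, Col14a1 and Col20a1, had at most 51 counts in a library. By edgeR, 0 FACIT chains were DEGs in clone E3, with 1 (Col12a1) at an unadjusted p under 0.05 and 0 by DESeq2. By edgeR, Col14a1 was the 1 that fell in clone E5 (-1.51 ± 0.47, FDR = 0.0474), but by DESeq2 it was not a DEG there (FDR = 0.0776).

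Summed by class, 3 of the 4 sums were mostly 1 chain in every library (Col3a1, Col4a1 or Col16a1). In the sum of the other chains, Col18a1 made up 37.4 to 61.8% over the libraries. The fibrillar total was 3211 ± 205 CPM in WT, 4472 ± 560 in clone E3 and 3472 ± 170 in clone E5. Col3a1 made up 86.8 to 93.6% of this sum. All E3 libraries exceeded WT and clone E5 overlapped it, whereas without Col3a1 the fibrillar total of clone E5 lay below WT in every library (422 ± 27.0 against 246 ± 23.5 CPM). The basement membrane total was 2043 ± 249, 2384 ± 637 and 2253 ± 209 CPM in the same order, and the lines overlapped; in clone E3 that came from replicate 3 alone (1659 CPM), the others being at 2643 and 2851 CPM against at most 2278 in WT. The FACIT total was 255 ± 14.1, 245 ± 18.4 and 205 ± 12.8 CPM, lower than WT in every E5 library, and at least 98.8% of it was Col16a1. The total of the other chains was 1033 ± 67.5, 1321 ± 260 and 816 ± 69.9 CPM, above WT in every E3 library and below WT in every E5 library. No test was made on these sums. Over all 44 chains the total was 6541 ± 414 CPM in WT, 8421 ± 1291 in clone E3 and 6745 ± 314 in clone E5; the E3 libraries lay above WT by CPM but overlapped it per kb of exon, again through replicate 3 alone (813 CPM per kb against 1119 and 1020 in the others and 734 to 830 in WT).

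**Figure D3:**
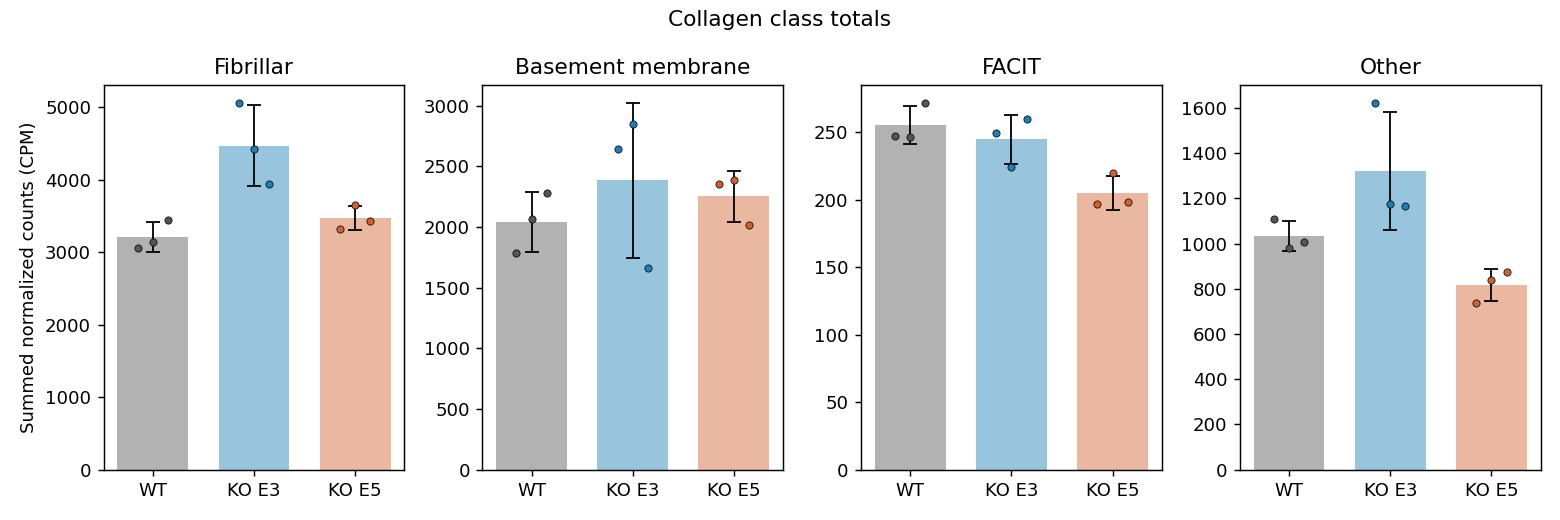
Summed CPM of the chains of each collagen class in WT, clone E3 and clone E5; bars are means, error bars the SD and points the 3 libraries of a line. The fibrillar total is highest in clone E3 (4472 CPM), the basement membrane totals overlap, and the total of the other chains runs from 816 CPM in clone E5 to 1321 in clone E3.

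Ratios between partner chains, in CPM per kb of exon, do not depend on library scaling. The Col4a1 to Col4a2 ratio was 1.80 to 1.82 in WT, 1.88 to 1.91 in clone E3 and 1.96 to 2.09 in clone E5, so the pair stayed near its WT proportion, though the 3 lines did not overlap. The Col6a1 to Col6a2 ratio was 2.63 to 3.01 in WT and 2.61 to 2.93 in clone E3 but 4.36 to 4.81 in clone E5. The Col1a1 to Col1a2 ratio ran from 2.98 to 14.9 over the libraries and overlapped in all lines. Col5a1 exceeded Col5a2 by 304 to 448 times in WT, 1756 to 3229 times in clone E3 and 1392 to 4453 times in clone E5, on few Col5a2 counts. A further 3 ratios were chosen after their values were seen. The Col6a3 to Col6a1 ratio was 0.0503 to 0.0597 in WT, 0.0161 to 0.0292 in clone E3 and 2.33e-04 to 4.13e-04 in clone E5. For Col5a1 to Col3a1 it was 0.165 to 0.169, 0.132 to 0.163 and 0.0706 to 0.0900, and for Col4a5 to Col4a1 0.00430 to 0.00561, 0.0243 to 0.0329 and at most 2.19e-05.

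**Figure D4:**
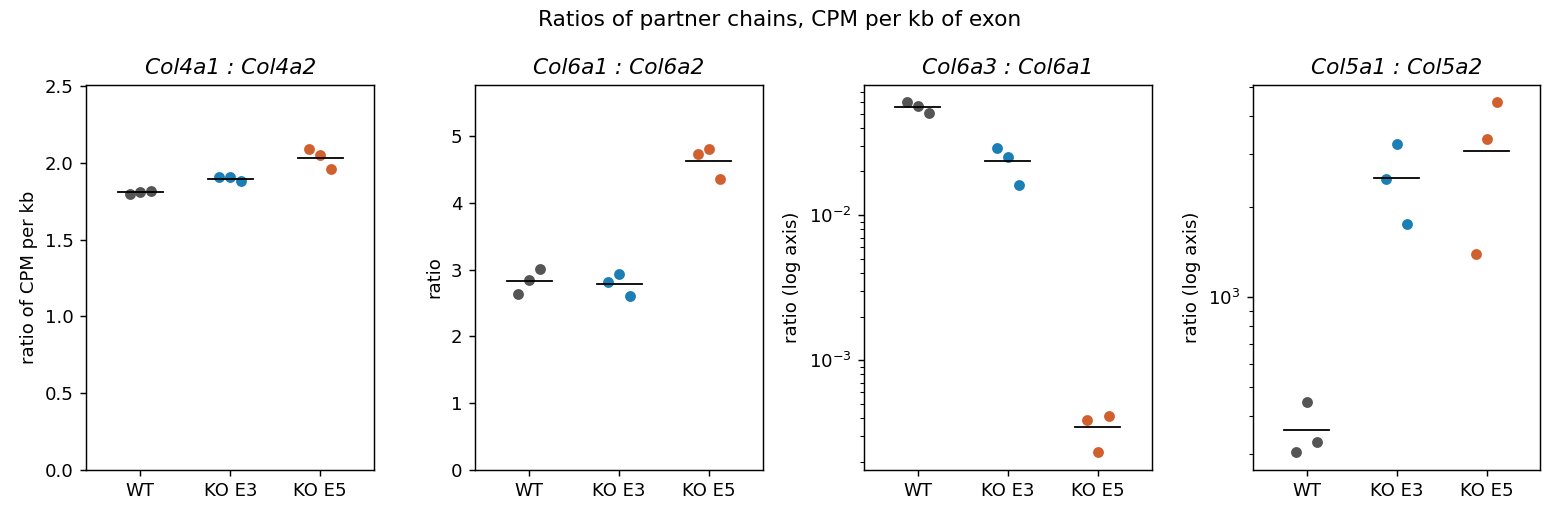
Ratios of partner chains in CPM per kb of exon in each library, with the mean of each line as a bar; the 2 panels on the right have log axes. The Col6a1 to Col6a2 ratio is 4.36 or more in clone E5 and 3.01 or less elsewhere, and the Col6a3 to Col6a1 ratio of clone E5 lies far below that of the other lines.

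The genes that make, cut, crosslink, bind or degrade collagen changed in both directions in each clone. Of 54 such genes listed, 40 were tested. In clone E3, 3 rose (Fkbp14, Mrc2 and Fap) and 2 fell (Adamts14 and Loxl2), shares of 7.5% and 5% beside 5.43% and 4.39% of all genes, with a median log2 fold change of 0.11. In clone E5, 1 rose (Loxl2) and 5 fell (P3h2, Fkbp10, Adamts3, Adamts14 and Ctsk), 2.5% and 12.5% beside 2.69% and 5.52%, with a median of -0.17. The shares in clone E3 and the share that rose in clone E5 were near those of all genes. Fap reached the filter on low counts through clone E3 alone and Loxl2 through WT and clone E5. Adamts3 and Ctsk reached it through WT and clone E3, so these shares are a description only. Adamts14, a protease that trims the amino end of procollagen, fell in both clones, from 161 ± 2.55 CPM in WT to 53.8 ± 7.72 in clone E3 (-1.58 ± 0.13, FDR = 2.35e-05) and 71.2 ± 9.21 in clone E5 (-1.18 ± 0.13, FDR = 1.12e-04). Loxl2, which crosslinks collagen, measured 3.89, 3.58 and 3.78 CPM in WT, 0.160, 0.127 and 0.0880 in clone E3 and 10.1, 11.2 and 8.84 in clone E5. It fell by 4.87 ± 0.22 on the log2 scale in clone E3 (FDR = 8.21e-07) and rose in clone E5 by 1.42 ± 0.14 (FDR = 6.87e-05), opposite in direction to 6 of the 7 chains that were DEGs in E3 and to the 6 that were DEGs in E5.

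Of the enzymes and chaperones that act on the nascent chain, Fkbp10 fell in clone E5 from 202 ± 7.69 to 89.3 ± 4.54 CPM (-1.18 ± 0.10, FDR = 2.55e-05) and P3h2, a prolyl 3-hydroxylase, from 16.4 ± 0.856 to 5.09 ± 0.497 CPM (-1.68 ± 0.19, FDR = 1.41e-04), neither being a DEG in clone E3. Fkbp14, another peptidyl-prolyl isomerase of the endoplasmic reticulum, rose in clone E3 from 1.63 ± 0.434 to 4.50 ± 1.5 CPM (1.46 ± 0.26, FDR = 0.00228). Mrc2, an endocytic collagen receptor, rose in clone E3 from 77.5 ± 4.32 to 164 ± 22.0 CPM (1.08 ± 0.11, FDR = 1.08e-04) and measured 154 ± 9.67 CPM in clone E5, a log2 fold change of 0.99 that was not a DEG. The low-abundance genes named above, Fap, Adamts3 and Ctsk, stand outside the rule for named genes and were named after their values were seen. Adamts3 had 1 count in clone E5 against 153 in WT, which is 0.646% of the WT level (exact 95% interval 0.0162 to 3.65%).

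Some markers of fibroblasts also differed between the lines. Of 5 listed, Pdgfrb alone rose in clone E3 (Pdgfra passed the FDR there at a log2 fold change of 0.97) and Pdgfrb, Lum and Acta2 fell in clone E5, Thy1 was at 0 in every library, and their summed level was 26.9 to 33.1 CPM in WT, 43.9 to 75.8 in clone E3 and 16.6 to 19.95 in clone E5. Of the 5 epithelial markers, Krt8, Krt18 and Krt19 fell in clone E3 and Krt18 rose in clone E5, with summed levels of 451 to 459, 128 to 199 and 896 to 958 CPM. Of the 4 mesenchymal markers none was a DEG, though Vim (log2 fold changes of 0.40 and 0.66) and S100a4 (0.70 and 0.81) passed the FDR as higher in both E3 and E5. The part of any of these in the collagen differences was not tested.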

How the data were processed

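The authors sequenced polyA RNA of cultured LLC cells (directional library kit, paired ends), ran FastQC, Trimmomatic for trimming and STAR for alignment against GRCm39, and deposited raw counts, 1 per gene and library, not normalized and not pooled; per the labels, each library belonged to 1 line and replicate. The authors used DESeq2 for their own comparisons. The tool that counted reads, whether it used strand and which annotation it read are not given in the sources used here, so counts of overlapping genes are uncertain; 8 chains, among them Col4a5, Col6a3, Col5a2 and Col1a2, carry a tag for an overlapping locus.

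From the deposited counts, edgeR (4.0.16, R 4.3.3) was run with TMM scaling, filterByExpr (minimum count 10, minimum total 15) and its quasi-likelihood test, with all 9 libraries in 1 fit. FDRs are Benjamini-Hochberg adjusted over 14593 genes, and DEGs needed an FDR below 0.05 with a log2 fold change over 1 in size. Standard errors divide the size of the log2 fold change by the root of F. Depth was 44257404 to 55095219 counts per library, so counting error matters only for the rare chains; intervals and detection limits cover counting error only. Counts were also simulated for 14593 genes, with 200 changed by 2 on the log2 scale in each clone. For clone E3 against WT edgeR recovered 198 with 4 false calls, and for clone E5 against WT 200 with 0. The changed genes were drawn from those with a mean above 1 CPM, so recovery of rarer chains was not tested.

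Class totals and ratios were not tested. Exon lengths, for all 44 chains, and promoter windows came from GENCODE vM39 on GRCm39; its transcript starts differ from the deposited gene bounds for some chains. The chains with values in every library were the 12 with the highest group mean and any DEG with a group mean of at least 1 CPM; pathway genes named were those called in both clones and the 5 largest called per clone above an average log2 CPM of 1. The members and lists were chosen with earlier results of these data known. Alternatives were DESeq2 (1.42.0), other scalings, filters and thresholds, fits of 2 lines only, a replicate block and leaving out each library.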

Additional observations from a re-analysis of the deposited data

Results flagged for a closer look

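The direct test of clone E5 against clone E3 in edgeR's fit made 11 chains DEGs, and the 7 of them with a mean of at least 1 CPM in some line are given here. The log2 fold change of clone E5 over clone E3 was -1.16 for Col5a1 (FDR = 1.63e-04), -1.72 for Col6a2 (FDR = 8.88e-06), -7.08 for Col6a3 (FDR = 8.98e-07), -1.74 for Col7a1 (FDR = 8.49e-05), -5.55 for Col2a1 (FDR = 1.40e-06) and -2.44 for Col1a1 (FDR = 8.52e-05). For Col4a5 the fitted value was -11.73 (FDR = 3.33e-08), which rests on 2 counts in clone E5 and is no measure of size. In each of the 7, all 3 E5 libraries lay below all 3 E3 libraries. The 7 were chosen as DEGs of this same comparison, so this and the ranges below only describe them. Without any 1 library the values stayed between -1.29 and -1.08 for Col5a1, -1.82 and -1.55 for Col6a2, -7.35 and -6.68 for Col6a3, -1.98 and -1.61 for Col7a1, -5.77 and -5.16 for Col2a1, and -2.63 and -2.19 for Col1a1.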

How the results depend on the processing

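Of 48 single-chain values followed, none that was a DEG changed sign under any alternative, and 8 that were not did so under some (Col4a1 in E5 against E3, Col4a2 in all 3 comparisons, Col18a1 in E5 against E3, Col16a1 and Col6a3 in E3 and Col8a1 in E5), with values of -0.0556 to 0.137. With the FDR alone, the chains higher in clone E3 numbered 10 of 24, beside 2296 of 14593 genes. Of the 40 pathway genes tested, 11 were higher and 5 lower in clone E3, 16 in all beside 30.5% of all genes. In clone E5, 3 were higher and 14 lower, 17 in all beside 20.6% of all genes. Requiring at least 10 counts in every library, which removes chains that were nearly silent in 1 line, left 12550 genes in the test. Fewer than 24 chains and fewer than 40 pathway genes were then left, so the counts that follow are not shares of 24 or 40. This filter gave 3 chains higher and 0 lower in clone E3, beside 461 and 367 of all genes tested. In clone E5, 1 chain was lower, beside 319 genes, and against clone E3 5 were lower, beside 528 genes. Col6a1 was among these 5, and at -0.98 on the log2 scale it was short of a DEG in the fit reported above. The pathway genes were 2 higher (Fkbp14 and Mrc2) and 1 lower in clone E3. In clone E5 they were 0 higher and 3 lower, where 252 of all genes were higher and 319 lower. Leaving out 1 library at a time gave 4 to 7 chains higher in clone E3, 5 to 7 lower in clone E5 and 11 to 13 lower in clone E5 against clone E3. Beside these stood 690 to 889, 697 to 896 and 1043 to 1249 of 14831 to 14934 genes tested. In the same settings 1 to 2 pathway genes were higher in clone E5, beside 334 to 455 of all genes. Without its most abundant chain, the log2 ratio over WT was -0.78 for the fibrillar total in clone E5, 0.23 and -0.96 for the FACIT total in clones E3 and E5, 0.99 for the other chains in clone E3 (also 0.99 with the multiplexins counted as basement membrane) and -0.0921 for all chains in clone E5; 3 of these (fibrillar and all chains in E5, FACIT in E3) thereby changed sign. Upper-quartile scaling moved the median of all genes to -0.10 in clone E5 against clone E3 and made Col1a1 a DEG in clone E3 (1.07). The replicate numbers did not pair the libraries: the 9 same-numbered pairs correlated at -0.254 to 0.0993. With the replicate block, the chains numbered 6 higher and 1 lower in clone E3, 5 lower in clone E5 (Col14a1 lost, FDR = 0.0922) and 11 lower in clone E5 against clone E3. In the same order, the counts over all 14593 genes were 745, 625, 760 and 1050. Chains with under about 10 counts per library are limited by depth, and Col9a1 (0 to 11 counts) and Col28a1 (0 to 9) entered the test only under other filters.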

Other observations

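The genes near Col4a5, Col6a3 and Col5a2, which were low in clone E5, were looked at after their values were seen, within 1 Mb. Over all genes tested, 5.43% rose and 4.39% fell in clone E3, and 2.69% rose and 5.52% fell in clone E5. Of 8 tested protein-coding genes near Col4a5 on chromosome X, Nxt2, an mRNA export factor 538 kb away, had 36 to 60 counts per library in WT, 158 to 226 in clone E3 and none in clone E5, where 0 of 146 WT counts allows up to 2.53% of the WT level (exact 95% interval, counting error only). Nxt2 rose in clone E3 (2.02 ± 0.23 on the log2 scale, FDR = 4.17e-04) and fell in clone E5 (FDR = 4.60e-05), the same pattern as Col4a5. Mid2 had at most 1 count per WT library and 2 per E5 library, and rose in clone E3, to between 12 and 20. It reached the filter on low counts through clone E3 alone, so its rise is a description only. The other 6 genes tested were not DEGs in either clone. Between Col4a5 and Nxt2, the genes Irs4 and Gucy2f had no count in any library. Of 14 tested genes near Col6a3 on chromosome 1, Ackr3 rose and Espnl fell in clone E5, and in clone E3 Mlph, 71.1 kb away (2.04 ± 0.15, FDR = 1.71e-05), and Hes6 rose and Agap1 fell (-1.06 ± 0.20, FDR = 0.00269), while Col6a3 was not a DEG there. Of 5 tested genes near Col5a2, Col3a1 among them, Slc40a1 and Dnah7b rose in clone E3 and 0 were DEGs in clone E5. In WT, Slc40a1 had 0 to 7 counts per library and Dnah7b 2 to 11, so both were near or below the filter on low counts there. Whether neighbours moved together was not tested.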
